A study of Rattus norvegicus with 9 samples.

Results

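The 91 transcripts with the highest counts in PC12 cells were followed through treatment with erastin and co-treatment with a nanodelivery system, PQR NPs. They were chosen by level: a transcript belonged to the set if its mean over all 9 libraries was 1000 CPM or more, where CPM is the count divided by the total of the library and multiplied by 1000000. Of 41078 transcripts, 96 reached this limit, and the rule leaves out 5 of them, so that 91 remained, 0.222% of the rows. The level that chose them is a description and supports no result, whereas the differences between the groups were not part of the rule. Members are called here by their rank among the 91, from 1 for the highest mean CPM. CPM is not corrected for transcript length, so a rank orders counts and not molecules.

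PC12 is an established rat line from a tumour of the adrenal medulla, labelled wild type and neuron-like. The 3 groups of 3 libraries each were untreated cells, cells given Erastin and cells given Erastin+PQR NPs. The design text calls the erastin group a PD model, and all co-treated cells received erastin as well. The sources used here state no dose, exposure time or composition of the particles. No group analysed here had PQR NPs alone, so the particles were compared only on top of erastin. Nothing in the labels says that replicates were grown as separate cultures. The p-values then measure only spread among these samples, which may be technical.

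In mammalian cells a small number of genes supplies a large part of the messenger RNA. They typically encode ribosomal proteins, translation factors, cytoskeletal proteins, glycolytic enzymes and chaperones, and cells of the adrenal medulla add proteins of their secretory granules. Erastin inhibits the antiporter that exchanges glutamate for cystine. The resulting loss of glutathione weakens the defence against lipid peroxides and leads to ferroptosis, and the shortage of cystine is known to start an amino acid stress response. The rows carry Ensembl transcript IDs alone, of which 0 were found in the RefSeq gene table used for names, so the members could not be assigned to any of these families and are described by rank, level and response. The labelled cell type could not be checked against markers for the same reason, and no sequence is shown.

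The libraries held between 34772755 and 40826754 counts. Every member had at least 4059 counts in every library, where counting error alone gives a coefficient of variation (CV) of 1.57% or less. The median member had a counting CV of 0.427% in controls against a CV between libraries of 8.65%, so that sequencing depth did not limit these values. All 91 passed the filter on low counts. The libraries are bulk samples, so a lower share of counts cannot be told apart from a change in the RNA of other transcripts or in the amount of RNA per cell.

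The members together took a nearly constant part of each library, while its distribution among them changed with erastin. They held 16.8%, 16.8% and 16.2% of the counts in the control libraries, 17.8%, 17.6% and 17.9% with erastin and 17.3%, 17.4% and 17.6% under co-treatment. The erastin libraries lay above the controls, and the co-treated libraries overlapped with erastin and lay above the controls. The mean difference of erastin from control was 1.18 percentage points (17.8% ± 0.201 against 16.6% ± 0.353, SD, n = 3 each). Co-treatment differed from control by 0.814 points and from erastin by -0.362 points. These sums are over the levels that chose the members, some of which entered through their erastin libraries, so they are given without a test. For the 61 members with a mean of 1000 CPM or more in each group, the difference of erastin from control was reversed, at -0.453 points, and co-treatment stood 0.769 points above erastin and 0.316 points above control.

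This small net gain came from larger opposed movements. The 23 members called higher with erastin went from 3.40% ± 0.0659 of the counts in controls to 7.73% ± 0.258 with erastin, a gain of 4.33 points, and stood at 4.34% ± 0.0931 under co-treatment (SD, n = 3). The 40 members called lower went from 8.41% ± 0.211 to 5.45% ± 0.0969 and then to 8.22% ± 0.0834, so their share fell by 2.96 points with erastin. The 28 members not called took 4.79% ± 0.198, 4.60% ± 0.0837 and 4.86% ± 0.0381. The rank 4 transcript by itself added 1.23 points, and without it the other 90 held 16.6% ± 0.351 in controls and 16.5% ± 0.123 with erastin. Since the calls that formed these sets used the same libraries, the shares are descriptive and no further test.

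**Figure D1:**
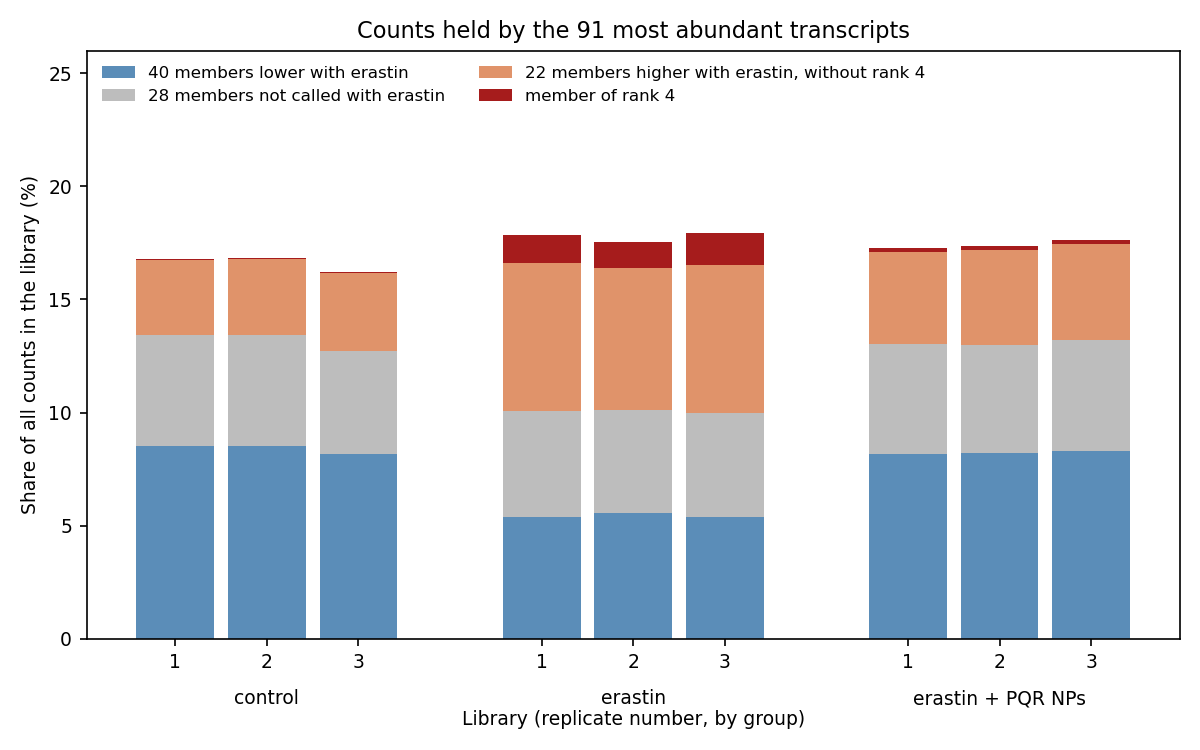
Share of all counts in each library (%) held by the 91 members, stacked by their call with erastin (edgeR adjusted p under 0.05 against control), for 3 libraries in each group. The stacks are of similar height (16.2% to 17.9%), while the part of the members higher with erastin is largest in the erastin libraries and the rank 4 transcript is visible as a band of its own there.

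The members ranked highest over all libraries held a larger part of the set's counts in the erastin libraries. The 10 members with the highest mean CPM held 22.44%, 22.82% and 22.04% of the counts of the set in controls, 33.02%, 32.28% and 33.99% with erastin and 23.44%, 23.71% and 23.98% under co-treatment. The 3 groups did not overlap, and the differences were 10.7 points for erastin against control, -9.39 points for co-treatment against erastin and 1.27 points for co-treatment against control. The erastin libraries helped to place members among these 10, above all rank 4, so these differences are a description with no test. Within each library, 50% of the counts of the set were held by 26 members in each control library, by 21 or 22 in the erastin libraries and by 26 or 27 in the co-treated libraries.

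Some members had a mean below 1000 CPM in 1 or 2 of the groups. Of the 91 members, 61 had a mean of 1000 CPM or more in each of the 3 groups, 22 in 2 groups and 8 in 1 group. The control mean reached it for 78 members, the erastin mean for 74 and the co-treated mean for 83. The order of the members was close between libraries of a group (Spearman's rho 0.915 to 0.988 over 91 members, as a description) and between control and co-treated libraries (0.795 to 0.893), and less so between control and erastin libraries (0.421 to 0.561). At the limit, the last members inside were rank 90 with a mean of 1010 CPM and rank 91 with 1001 CPM, and the first transcripts outside had 996 and 986 CPM. A member that entered through the group where it was high had to differ between groups. This applies to several of the large rises below and bears on the correlations above. Counts are therefore also given for the 61 members at or above the limit in each group.

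Erastin against control asked what erastin changed in these cells. Of the 91 members 23 rose (25.3%, beside 26.6% of all 17123 transcripts tested) and 40 fell (44.0%, beside 26.3%), in edgeR's quasi-likelihood test at an adjusted p of 0.05. In all 63 were called (69.2%, beside 52.9%). The libraries of both groups did not overlap for 25 members that were higher and 41 that were lower with erastin (beside 31.0% and 30.5% of all transcripts tested). Among the 61 members at the limit in every group, 12 rose and 25 fell. The 176 transcripts from 500 to 1000 CPM, the next below the limit, gave similar shares (24.4% higher and 42.6% lower), so nothing particular to the set is read from the share of falls. The median log2 fold change of the members was -0.19, beside 0.02 over all tested, and the median size of a change was 0.40 beside 0.70. The transcripts from 500 to 1000 CPM had similar medians (-0.19 and 0.39), so these too are not particular to the set. Changes of 2-fold or more were called for 10 members that rose (11.0%, beside 16.2% of all tested) and 8 that fell (8.79%, beside 10.8%). Among the 61 members at the limit in each group these were 2 and 5, so most of the 2-fold rises belonged to members under 1000 CPM in some group. The transcripts from 500 to 1000 CPM had similar shares of 2-fold changes to the 91 (9.09% higher and 10.2% lower), so these shares are not particular to the set.

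**Figure D2:**
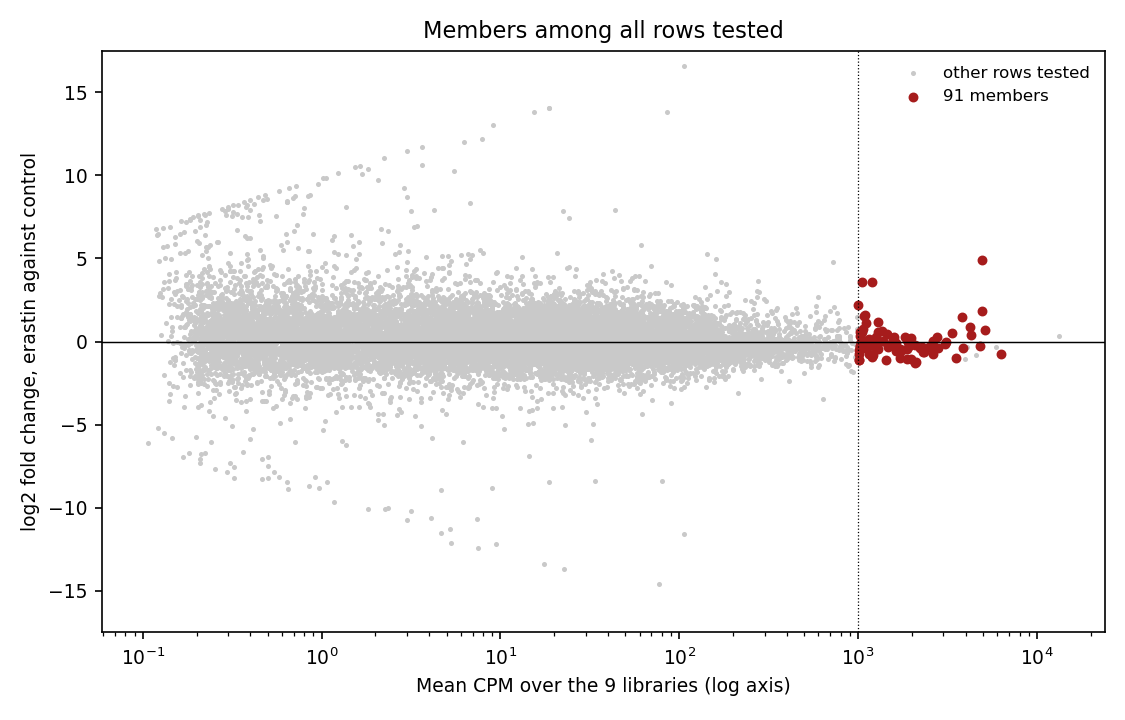
Mean CPM over the 9 libraries (log axis) against the log2 fold change of erastin over control for all 17123 transcripts tested in grey and the 91 members in red, with the dotted line at 1000 CPM and the 5 transcripts left out by the rule in grey to its right. The members range from -1.26 to 4.88 on the log2 scale, and fold changes of transcripts at 0 in a whole group, at the far left and in the slanted outer lines, depend on the prior count of the test.

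The largest rise belonged to the rank 4 transcript, ENSRNOT00000069133. It stood at 388, 487 and 425 CPM in the control libraries, 12076, 11735 and 14325 CPM with erastin and 1686, 1653 and 1640 CPM under co-treatment. The 3 groups were far apart, and by mean CPM it went from position 347 among all transcripts in controls to position 2 with erastin and 45 under co-treatment. The log2 fold change with erastin was 4.88 ± 0.13 (SE; 29.5-fold, edgeR adjusted p 5.6e-07). Rank 59, ENSRNOT00000040038, was at 230, 307 and 237 CPM in controls, 2938, 2834 and 3363 CPM with erastin and 288, 288 and 319 CPM under co-treatment. Only the erastin libraries were high, and control and co-treated libraries overlapped. Its rise was 11.9-fold (log2 fold change 3.57 ± 0.15, SE, edgeR adjusted p 1.6e-06). Both had means below 1000 CPM in controls, so the rule that made them members used their erastin libraries.

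Ranks 78 and 91 rose as well and had a different profile under co-treatment. Rank 78 was at 126, 165 and 106 CPM in controls, 1816, 1385 and 1488 CPM with erastin and 1326, 1453 and 1581 CPM with erastin and PQR NPs. Rank 91 was at 285, 272 and 327 CPM, then 1488, 1252 and 1329 CPM, and then 1350, 1369 and 1338 CPM. In both cases the treated groups overlapped with each other and lay above every control library. Rank 78 rose 11.9-fold with erastin (log2 fold change 3.57 ± 0.19, SE, edgeR adjusted p 4.3e-06), and rank 91 rose 4.63-fold (2.21 ± 0.09, SE, edgeR adjusted p 1.5e-06). Rank 53 had the same kind of profile at a smaller size, with 728, 763 and 606 CPM in controls, 1963, 1402 and 1373 CPM with erastin and 1651, 1543 and 1549 CPM under co-treatment (2.27-fold with erastin, edgeR adjusted p 0.00021).

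Among the 10 members of highest mean CPM, ranks 3 and 9 also rose by 2-fold or more. Rank 3 was at 2490, 2519 and 2189 CPM in controls, 10605, 6950 and 7952 CPM with erastin and 3734, 3847 and 4265 CPM under co-treatment (log2 fold change with erastin 1.83 ± 0.16, SE, edgeR adjusted p 3.3e-05). Rank 9 was at 2047, 2093 and 1748 CPM, 5982, 5303 and 5156 CPM, and 3612, 4092 and 4169 CPM (1.49 ± 0.11, SE, edgeR adjusted p 1.6e-05). In both members the co-treated libraries lay between the other groups without overlap. The remaining rises of 2-fold or more were those of ranks 70, 72 and 68, which had erastin means of 1916 ± 244, 1568 ± 90.3 and 1732 ± 169 CPM against control means of 628 ± 115, 549 ± 124 and 814 ± 111 CPM (SD, n = 3), or 3.07-fold, 2.88-fold and 2.14-fold (edgeR adjusted p 5.5e-05, 5.6e-05 and 9e-05). No library of these 3 members overlapped between control and erastin. Their control means were below 1000 CPM, so the rule that made them members used their erastin libraries.

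**Figure D3:**
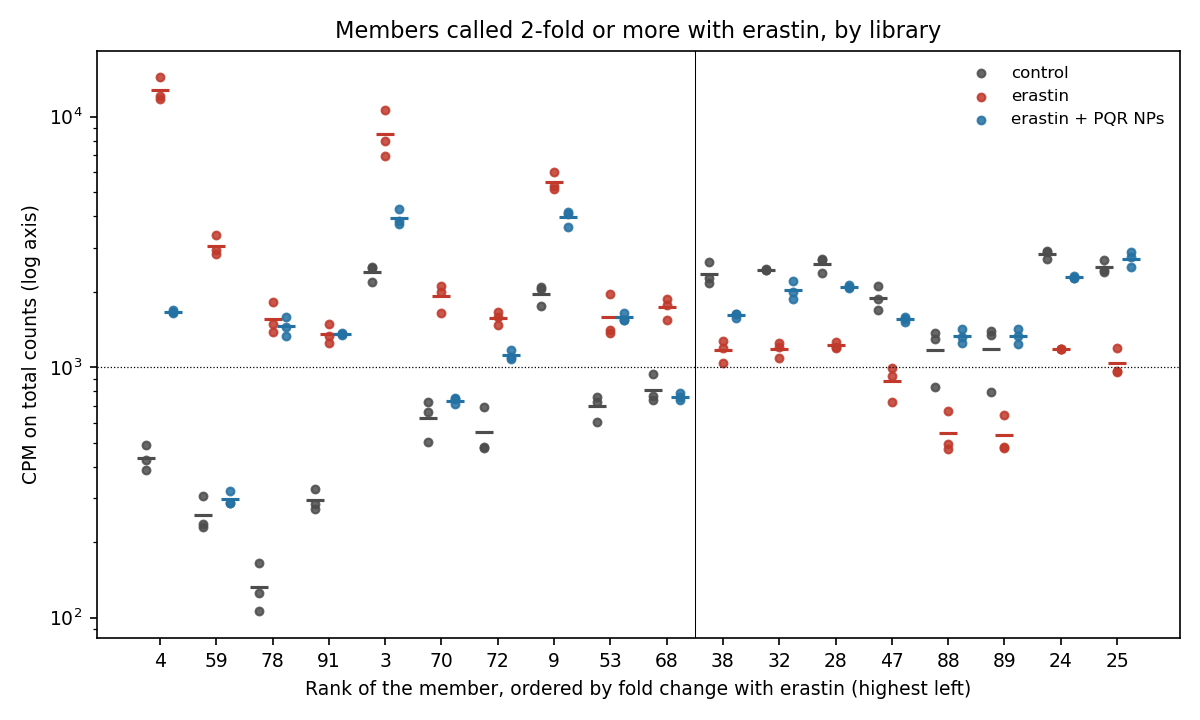
CPM on total counts (log axis) in each library for the 18 members called 2-fold or more with erastin, ordered from the highest fold change (rank 4) to the lowest (rank 25), with points for libraries, dashes for group means over 3 libraries and a dotted line at 1000 CPM. Control and erastin libraries are apart in all 18, and the co-treated libraries lie near erastin in ranks 78, 91 and 53 and near control in ranks 59, 70 and 68.

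Smaller rises were called for ranks 2, 6 and 7. Rank 2 was at 4165, 4242 and 3989 CPM in controls and 6154, 6778 and 6897 CPM with erastin (1.61-fold, edgeR adjusted p 0.00025), and rank 6 at 3892, 3484 and 4121 CPM and 5141, 4857 and 4819 CPM (1.30-fold, edgeR adjusted p 0.004). Rank 7 was at 3094, 3798 and 3926 CPM in controls and 4361, 7069 and 8388 CPM with erastin (1.85-fold, edgeR adjusted p 0.012). In none of these did control and erastin libraries overlap, although erastin replicate 1 of rank 7 was well below the other libraries of its group.

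The falls were more numerous and, by the median over this set, smaller. The lowest log2 fold change of any member was -1.26 ± 0.11 (SE, edgeR adjusted p 3.2e-05), that of rank 25, ENSRNOT00000028411, at 2668, 2453 and 2392 CPM in controls, 1196, 966 and 958 CPM with erastin and 2517, 2752 and 2871 CPM under co-treatment. Erastin libraries alone were low, and the others overlapped. Rank 24, ENSRNOT00000042459, was at 2877, 2702 and 2918 CPM, then 1186, 1186 and 1185 CPM, and then 2315, 2263 and 2263 CPM (log2 fold change with erastin -1.25 ± 0.05, SE, edgeR adjusted p 1.9e-06). Here the co-treated libraries lay below every control library. Over the 40 members that fell the median fold was 0.708 of the control level, whereas it was 1.70-fold over the 23 that rose. Of the 30 members under 1000 CPM in a group, 8 rose and 3 fell by 2-fold or more. The rule therefore bears on these sizes, which are a description of the set.

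Ranks 28, 32, 38 and 47 also fell to 0.499 of control or less. Their control means were 2588 ± 191, 2448 ± 20.7, 2354 ± 250 and 1891 ± 207 CPM and their erastin means 1220 ± 37.7, 1179 ± 84.0, 1165 ± 118 and 879 ± 137 CPM (SD, n = 3), with edgeR adjusted p-values of 9e-06, 5e-05, 8.6e-05 and 0.00018. The erastin libraries of each were below all of its control libraries. Rank 1, the member of highest mean CPM, was at 7408, 8649 and 6498 CPM in controls, 4183, 4594 and 4743 CPM with erastin and 6742, 6622 and 6945 CPM under co-treatment, a fall to 0.603 of control (edgeR adjusted p 0.00094). Rank 10 was at 4483, 3942 and 3822 CPM, 2071, 2119 and 1933 CPM, and 4467, 4526 and 4528 CPM, a fall to 0.503 (edgeR adjusted p 2.5e-05). Rank 8 fell to 0.762, from 4113, 4065 and 4123 CPM to 3069, 3181 and 3066 CPM (edgeR adjusted p 0.00098).

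Ranks 88 and 89, at the lower end of the set, had similar CPM in every library. Rank 88 was at 1301, 1372 and 836 CPM in controls, 667, 494 and 471 CPM with erastin and 1253, 1317 and 1414 CPM under co-treatment. Rank 89 was at 1345, 1396 and 793 CPM, 646, 476 and 480 CPM, and 1326, 1242 and 1418 CPM. The ratio of the pair, computed after their values were seen, stayed between 0.945 and 1.06 over the 9 libraries, and 4 of the 4095 pairs of members had a steadier ratio (SD of the log2 ratio 0.059 for ranks 88 and 89). Both were low in control replicate 3. Both fell with erastin, to 0.467 and 0.455 of control (edgeR adjusted p 0.002 and 0.0025). The sources used here do not state how reads fitting several transcripts were divided, and whether the pair counts in part the same reads was not tested.

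Not all abundant transcripts passed the test. The 28 members not called had log2 fold changes from -0.31 to 0.32 with erastin. Rank 5 was at 5546, 5159 and 4870 CPM in controls and 5245, 4087 and 3731 CPM with erastin, and the groups overlapped (log2 fold change -0.25 ± 0.12, SE, edgeR adjusted p 0.13). It was called without erastin replicate 1 and when replicate numbers were fitted as a block (edgeR adjusted p 0.0236 and 0.0432). Rank 64, chosen after its values were seen, was at 1132, 1110 and 1095 CPM in controls, 1186, 1165 and 1088 CPM with erastin and 1225, 1266 and 1139 CPM under co-treatment. Its log2 fold change was 0.05 ± 0.06 with erastin and 0.06 ± 0.06 for co-treatment against control (SE).

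Erastin plus PQR NPs against erastin asked what the particles changed in cells given erastin. Of the members 35 were higher (38.5%, beside 25.3% of all tested) and 21 lower (23.1%, beside 25.9%) than with erastin alone, 56 in all (61.5%, beside 51.2%). Libraries of the treated groups did not overlap for 41 members that were higher and 22 that were lower under co-treatment (beside 33.5% and 29.4%). Of the 61 members at the limit in each group, 22 were higher and 11 lower. The transcripts from 500 to 1000 CPM were again similar, with 40.9% higher and 29.0% lower. Changes of 2-fold or more were called for 4 members that were higher and 7 that were lower (beside 8.64% and 15.8%), and for 2 and 2 of the 61. This comparison uses the same erastin libraries as the first one, so the chance errors of both are opposed, and their values are given side by side without an overlap.

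Rank 59 had the largest fall of any member here, to 0.0933 of its erastin level (log2 fold change -3.42 ± 0.14, SE, edgeR adjusted p 4e-06), and rank 4 fell to 0.124 of it (-3.01 ± 0.12, SE, edgeR adjusted p 4e-06). Rank 7 went to 2308, 2459 and 2790 CPM, 0.363 of its erastin level (-1.46 ± 0.23, SE, edgeR adjusted p 0.001), below every control library. Ranks 70, 74, 68 and 3 fell to 0.365, 0.408, 0.420 and 0.443 (edgeR adjusted p 0.00011, 0.00018, 6.2e-05 and 0.00035). Their co-treated means were 736 ± 22.6, 680 ± 85.2, 763 ± 24.8 and 3949 ± 279 CPM (SD, n = 3). Rank 74 had been at 753, 910 and 1162 CPM in controls and 1705, 1511 and 1544 CPM with erastin, a rise of 1.70-fold (edgeR adjusted p 0.0025). Falls of a smaller size were called for ranks 2 (0.665), 72 (0.678), 9 (0.689) and 6 (0.772) (edgeR adjusted p 0.00063, 0.01, 0.0033 and 0.0044).

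For ranks 78, 91 and 53, which had risen with erastin, the log2 fold changes of co-treatment against erastin were -0.17 ± 0.17, -0.07 ± 0.08 and -0.07 ± 0.14 (SE, edgeR adjusted p 0.45, 0.5 and 0.72). None passed the test, which does not show that the levels were equal. In the other direction rank 25 rose 2.49-fold over erastin (edgeR adjusted p 3.6e-05), ranks 89 and 88 rose 2.37-fold and 2.33-fold (edgeR adjusted p 0.0016 and 0.0013) and rank 10 rose 2.10-fold (edgeR adjusted p 2.6e-05). Ranks 24, 47, 28, 32, 1, 8 and 38 were higher than with erastin by 1.83-fold, 1.68-fold, 1.64-fold, 1.64-fold, 1.43-fold, 1.36-fold and 1.31-fold (edgeR adjusted p 0.012 or below). Rank 90 was at 1176, 1194 and 1160 CPM in controls, 985, 789 and 748 CPM with erastin and 1141, 978 and 921 CPM under co-treatment. It fell to 0.718 with erastin (edgeR adjusted p 0.0045) and was not called between the treatments (edgeR adjusted p 0.14), where erastin replicate 1 overlapped with the co-treated libraries and the adjusted p without it was 0.0201.

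**Figure D4:**
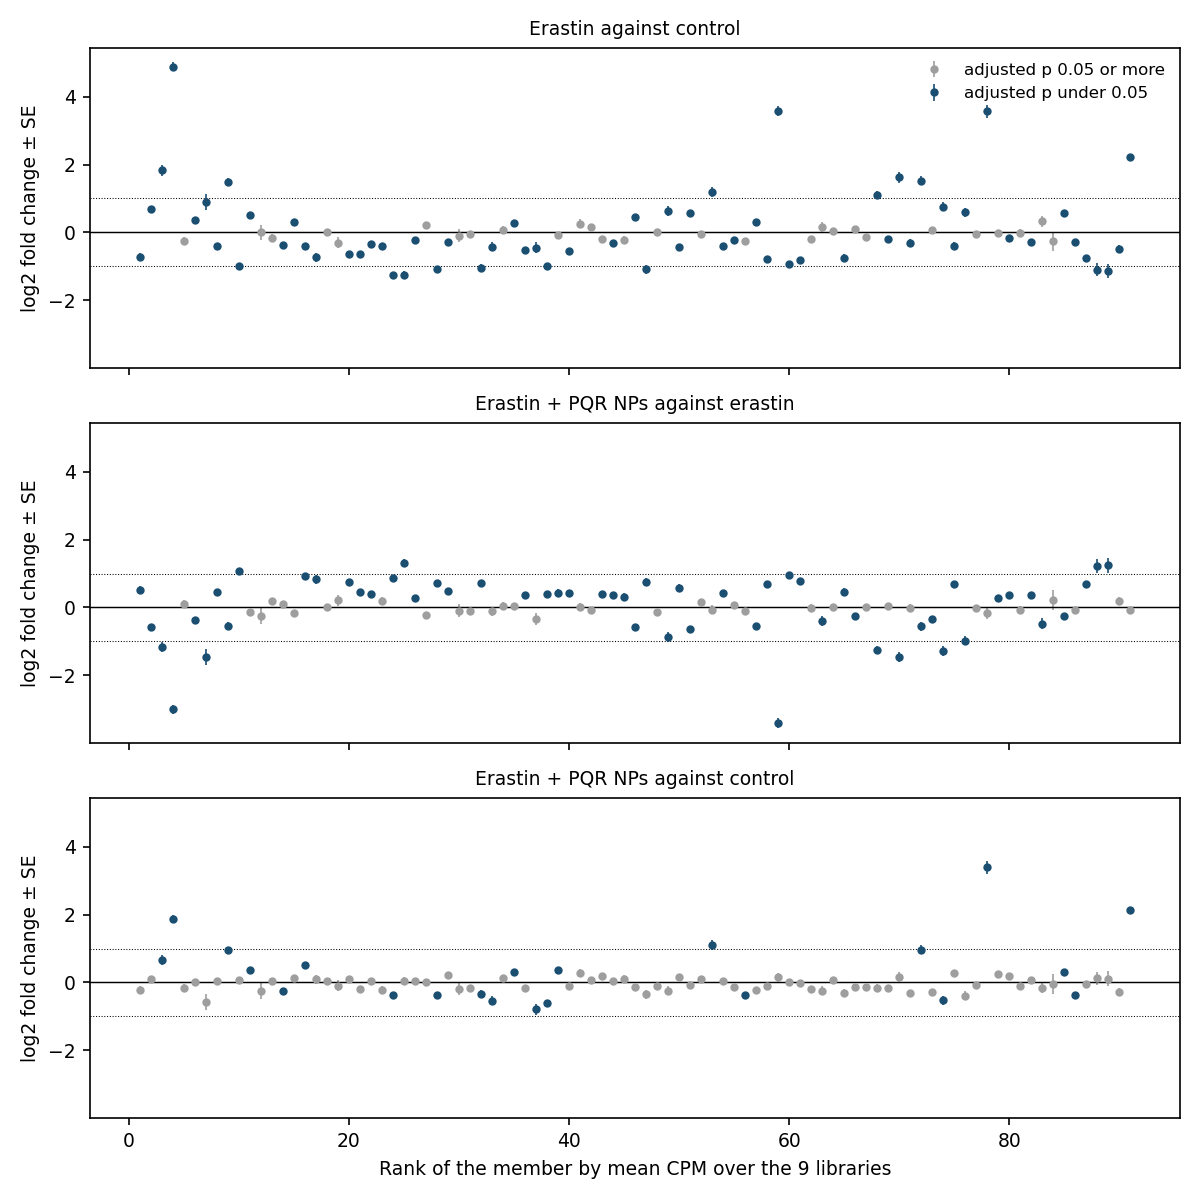
Log2 fold change ± SE of each of the 91 members in the 3 comparisons, in order of mean CPM, with dotted lines at 2-fold and dark points for an edgeR adjusted p under 0.05. The comparisons share libraries in pairs, and the lowest panel, erastin plus PQR NPs against control, has the fewest dark points (22 of 91, beside 63 and 56).

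Erastin plus PQR NPs against control asked how far co-treated cells differed from untreated ones. Of the members 12 were higher (13.2%, beside 7.7% of all tested) and 10 lower (11.0%, beside 9.21%), 22 in all (24.2%, beside 16.9%). Libraries did not overlap for 28 members that were higher and 16 that were lower (beside 21.1% and 17.3%). Changes of 2-fold or more were called for 4 higher members (beside 2.14%) and for 0 lower ones (beside 1.72%) in edgeR's test, 4 in all beside 3.86%. The lowest log2 fold change of any member was -0.80, so there was none at an unadjusted p under 0.05 either (0). DESeq2 gave 0 as well. In the band from 500 to 1000 CPM such large calls were also rare, with 3.41% upward and 0.568% downward (1 of 176). The 0 is therefore not read as particular to the set. Of the 22 calls among the members, 54.5% were higher. This share became 65.0% with upper quartile scaling, 73.7% without scaling factors and 45.8% with the replicate number as a block. The balance of directions was therefore not settled. Among the 61 members at the limit in each group, 6 were higher and 8 lower. Of the 176 transcripts from 500 to 1000 CPM, 9.66% were higher and 18.8% lower. These counts changed when single libraries were left out, also for an erastin library, which enters this comparison only through the shared fit. The 12 higher became 7 without co-treated replicate 2. Of lower members, in place of 10, there were 6 when control replicate 2 was left out, 4 for control replicate 3, 4 for erastin replicate 2, and with co-treated replicate 1, 2 or 3 left out 3, 3 and 2.

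The 4 members called 2-fold or more were ranks 78, 91, 4 and 53. Rank 78 was 10.5-fold above control (log2 fold change 3.40 ± 0.19, SE, edgeR adjusted p 3.6e-05), rank 91 was 4.40-fold above it (2.14 ± 0.09, SE, edgeR adjusted p 8.5e-06), rank 4 was 3.67-fold above it (1.88 ± 0.12, SE, edgeR adjusted p 5.7e-05) and rank 53 was 2.16-fold above it (1.11 ± 0.14, SE, edgeR adjusted p 0.0019). All 4 had control means under 1000 CPM and became members through treated libraries. Ranks 72 and 9 were 1.95-fold and 1.93-fold above control (edgeR adjusted p 0.0036 and 0.0011). The co-treated libraries of ranks 4, 9 and 72 lay between control and erastin with no overlap. Co-treated cells had 1.58-fold the control level of rank 3 (edgeR adjusted p 0.022). Each of 4 libraries decided this call, since leaving out control replicate 2 gave an edgeR adjusted p of 0.0569, control replicate 3 one of 0.0542, co-treated replicate 2 one of 0.0697 and co-treated replicate 3 one of 0.0608.

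Among the members that had fallen with erastin, rank 38 was at 1633, 1567 and 1631 CPM under co-treatment against 2163, 2263 and 2637 CPM in controls (0.656 of control, edgeR adjusted p 0.0064), and rank 24 was at 0.771 of control (edgeR adjusted p 0.0033). Rank 28 was at 0.777 of control (edgeR adjusted p 0.01), a call lost without co-treated replicate 1 or 3 (adjusted p 0.0501 and 0.0563). Rank 32 was at 0.795 of control with an edgeR adjusted p of 0.048, which was above the threshold in 12 of the 16 other settings and left-out libraries (0.0537 to 0.165). Rank 74, which had risen with erastin, was at 0.691 of control with an edgeR adjusted p of 0.041. That p was above the threshold in 13 of the 16 (0.0579 to 0.159). Ranks 7 and 47 were at 0.671 and 0.786 of control and were not called (edgeR adjusted p 0.13 and 0.1), and both passed without erastin replicate 1 (adjusted p 0.0284 and 0.0386) and with the replicate number as a block (adjusted p 0.0484 and 0.0497). Ranks 1, 2, 5, 6, 8, 10, 25, 59, 68, 70, 88, 89 and 90 were not called against control.

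The spread between libraries was lowest under co-treatment by its median. The median CV of the members over 3 libraries was 8.65% among control, 7.33% among erastin and 3.85% among co-treated libraries, beside 14.7%, 14.7% and 12.2% over all transcripts tested. The transcripts from 500 to 1000 CPM had the same order (8.35%, 7.15% and 4.83%), so it is not particular to the members. A CV above 20% was found for 8 members among control, 5 among erastin and 0 among co-treated libraries. In controls the highest CV was that of rank 84, at 1471, 1186 and 591 CPM (41.5%). With erastin it was that of rank 7 (31.1%), followed by rank 12 at 2140, 3406 and 4110 CPM and rank 30 at 1342, 1996 and 2323 CPM. In these 3 members erastin replicate 1 was the lowest of its group. The 5 transcripts that the rule leaves out held 2.56%, 3.12% and 3.50% of the counts in the same libraries, and their part in these values was not tested. Ranks 3 and 53 were instead highest in erastin replicate 1. Ranks 84, 12 and 30 were chosen after their values were seen.

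**Figure D5:**
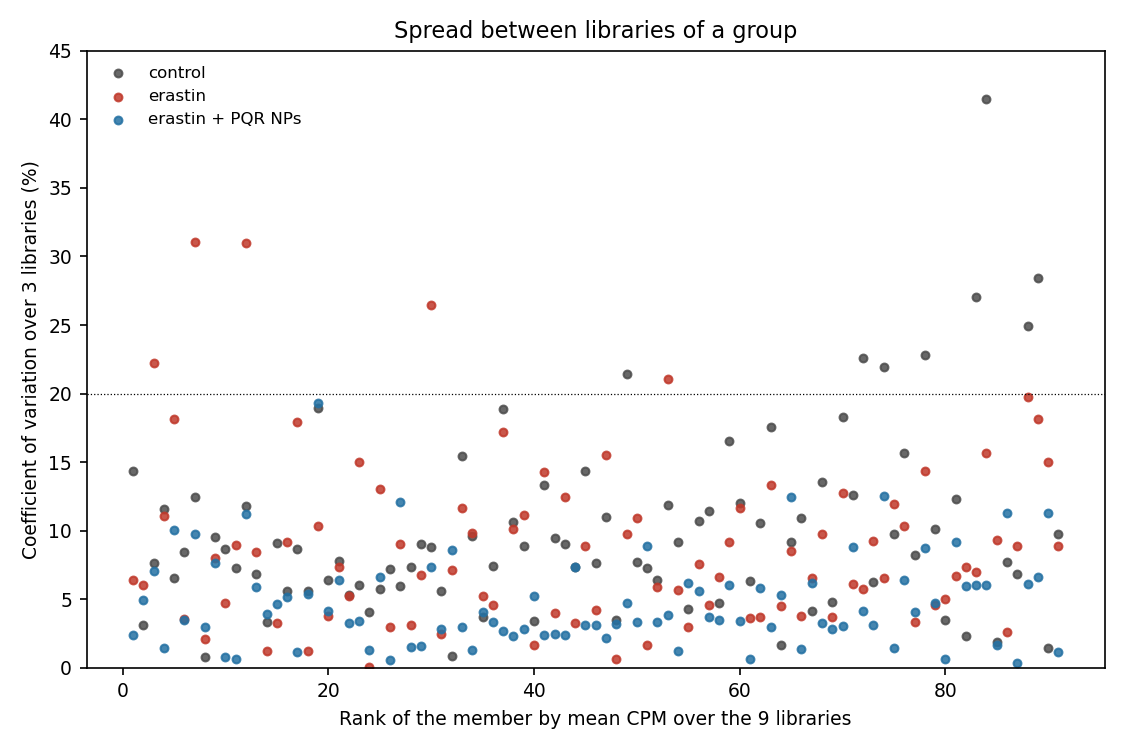
Coefficient of variation over the 3 libraries of a group (%) for each member, in order of mean CPM, with the dotted line at 20%. Co-treated values stay below 20%, while controls reach 41.5% (rank 84) and erastin 31.1% (rank 7).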

How the data were processed

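Poly(A) RNA was sequenced as paired-end reads of 150 bases on an Illumina instrument after 15 cycles of PCR, per the labels' protocols. Whole-number counts for Ensembl transcripts, not normalized, were deposited as 1 table for the series. HISAT2 2.2.1 and the build Rnor 6.0 were used, per the submitters' processing notes. The sources used here do not state the counting program, annotation release, use of strand or division of reads among isoforms, and counts of overlapping, antisense or near-identical transcripts are uncertain. PCR without molecular identifiers means that counting errors cover counting only.

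CPM used total counts. Tests used edgeR 4.0.16 (R 4.3.3, limma 3.58.1; quasi-likelihood, TMM, filterByExpr) on all 9 libraries, with Benjamini-Hochberg adjustment over 17123 transcripts. The SE of a log2 fold change is its size divided by the square root of F. Fold changes use TMM-scaled libraries and differ slightly from ratios of CPM. The code was tested on simulated data. Alternatives were DESeq2 1.42.0, other scalings, filters, blocks, limits and left-out libraries. Libraries of every group differed by more than sampling noise (chi-square per degree of freedom 26.5 to 58.1 over all rows and 101 to 1823 over the members).

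The members, lists and tests were chosen with earlier results of these data known. Members named by rule were the 10 highest by mean CPM, those called 2-fold or more in any comparison and the last 2 inside the limit, 27 in all. Ranks 12, 30, 64 and 84 were added after their values were seen. Permutation tests planned for shares of counts are not reported, since the choice of members used those levels. IDs are printed for 2 that rose and 2 that fell. Gene lists drawn up for the case that names were available matched 0 IDs and were not used.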

Additional observations from a re-analysis of the deposited data

How the results depend on the processing

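With erastin the counts of members called stayed within 1.5 times under every scaling, filter, test and left-out library tried: 22 to 24 higher without single libraries (23 with all) and 32 to 36 lower (40 with all). For co-treatment against erastin they were 33 to 37 higher and 18 to 21 lower. For co-treatment against control they were 7 to 14 higher and 2 to 11 lower without single libraries (12 and 10 with all). DESeq2 gave 15 higher and 13 lower for this comparison. Its lower ones were 4 with no filter on low counts, 5 without scaling factors (chosen after the data were seen) and 6 with only the 6 libraries compared. Correlations of same-numbered deviations were -0.00333 to 0.136, beside -0.111 to 0.0957 for different numbers, so no clear pairing of the libraries was seen. The highest values joined erastin replicate 1 to control replicate 1 (0.136) and to co-treated replicate 1 (0.110). With the replicate number as a block the counts were 23 and 37, 34 and 19, and 11 and 13.

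Other limits change the set itself. At 500 CPM (267 members) the higher and lower counts of the 3 comparisons were 66 and 115, 107 and 72, and 29 and 43. At 2000 CPM (26 members) they were 8 and 13, 11 and 6, and 5 and 2. For the 61 members at 1000 CPM in each group they were 12 and 25, 22 and 11, and 6 and 8. The difference in share of counts between erastin and control was 0.636 points at 500 CPM and reversed to -0.453 for the 61. That of co-treatment against erastin reversed to 0.0314 at 500 CPM and 0.769 for the 61 and was -0.720 at 2000 CPM, and that against control was 0.316 for the 61. The difference in the share of the 10 highest was 7.04, 16.4 and 8.91 points for erastin against control at 500 CPM, at 2000 CPM and for the 61, -5.96, -15.1 and -6.90 for co-treatment against erastin, and 2.01 against control for the 61. Of 1296 checks on the 27 members named by rule (ranks 12, 30, 64 and 84 were not checked), 1246 kept direction and side of the threshold, 31 lost and 9 gained a call, and 10 changed sign with no call under either setting. The cause of the moved and reversed values was not tested.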

Other observations

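Beyond the 91 members and the 5 transcripts left out, 38 transcripts had a mean of 1000 CPM or more in at least 1 group while their mean over all libraries was lower. Of these, 15 reached it only with erastin, 8 only in controls and 7 only under co-treatment, 2 reached it in both treated groups and 6 in control and co-treated cells. Those that reached it in 1 group had to be high there, so their calls are a description. The one with the highest fold among those that reached it only with erastin was at 59.2 ± 2.40 CPM in controls, 1619 ± 36.2 CPM with erastin and 505 ± 30.9 CPM under co-treatment (SD, n = 3). Among those that reached it only under co-treatment, the one farthest above control was at 221 ± 5.88, 269 ± 33.3 and 1006 ± 26.4 CPM.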
